A study of Mus musculus with 17 samples.

Results

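The 3 bulk RNA-seq libraries titled PDL1_Fc were compared with the 3 titled Control, which are 6 of the 12 bulk libraries and of the 17 samples of the series, and were taken by their titles alone. The labels describe all 6 as T cells of the spleen of wild-type mice, stimulated with antibodies to CD3 and CD28, the T cell receptor complex and its co-stimulator. The Control libraries had the stimulation and nothing else. The PDL1_Fc libraries are labelled in conflicting ways: the title names PD-L1, a ligand of the checkpoint receptor PD-1, fused to an antibody Fc part, while the treatment field names PD-1 Fc. The treatment protocol names PD-1 Fc and control IgG Fc at 2.5 ug/ml, activation measured at 72 h, and no PD-L1 Fc, so the protein added to these 3 libraries is not settled here and the groups are called by their titles. The labels do not say whether the replicates are separate mice or cultures, and p-values then measure only the spread between libraries, which may be technical. The other 6 bulk libraries, titled Ctrl_Fc and PD1_Fc, carry the same genotype, source and stimulation in their labels.

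Macrophages are phagocytes of the innate immune system that live from the cytokine CSF1 through its receptor Csf1r, take up and degrade particles in lysosomes, and sense microbes through Toll-like receptors. On sensing them they secrete cytokines and chemokines and respond to their own type I interferon by switching on a large set of antiviral genes. PD-L1, the product of Cd274, and the B7 proteins Cd80 and Cd86 on their surface pass inhibitory and stimulatory signals to T cells.

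The 6 libraries carried almost none of the defining transcripts of T cells, the cell type on their labels. Macrophage genes stood at high levels in every one of them, and no single gene passed the test between the 3 PDL1_Fc and the 3 Control libraries. The Control libraries held 16732833 to 18557390 reads counted in genes and the PDL1_Fc libraries 14880455 to 16020727, over 17397 to 17982 genes with a count. Between 8.95% and 11.2% of reads were recorded as not aligned and 19.8% to 20.6% as not unique, and both shares overlapped between the groups. The share of all reads recorded without a gene, which includes both of these, did not overlap. It was 42.6% to 43.5% in Control and 43.9% to 44.4% in PDL1_Fc, and its part in the differences below was not tested. Values within a gene are given as CPM, its count scaled to the total of gene counts of that library, and levels between genes as CPM per kilobase of exon. In bulk samples fewer cells of a type and less RNA per cell cannot be told apart.

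Of 20 T cell genes, Cd3g, Trbc2 and Skap1, which encode a CD3 chain, a constant part of the receptor's beta chain and an adaptor of receptor signalling, had 0 counts in all 6 libraries. With 100049304 counts in all, 3 counts correspond to 0.0300 CPM, a limit that covers counting error only. Cd3e, another CD3 chain, had 7 counts and Trac, the constant part of the receptor's alpha chain, 3 counts over the 6 libraries. Only 5 of the 20 had a mean of at least 1 CPM. The largest of them was Il7r, the receptor chain for interleukin-7, at 127 to 146 CPM, which made up most of the list's summed level of 160 to 181 CPM. Of 16 genes of T cell activation, Cd40lg and Il17a had 0 counts, the growth factor gene Il2 had 13 counts in all, and Tnfrsf9, the co-stimulatory receptor 4-1BB, stood at 322 to 357 CPM. Of the CD4 and CD8 genes, Cd4 had 30, Cd8a 5 and Cd8b1 1 count over the 6 libraries. That list still summed to 224 to 258 CPM, through the transcription factor genes Zbtb7b at 149 to 182 CPM and Runx3 at 68.1 to 78.8 CPM, which other cells express too. Of 12 B and plasma cell genes only the adaptor Blnk, at 117 to 137 CPM, reached 1 CPM, and the B cell surface gene Ms4a1 had 0 counts. Ncr1, an activating receptor of natural killer cells, also had 0 counts, and the 8 genes of that list summed to 7.18 to 10.5 CPM.

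**Figure D1:**
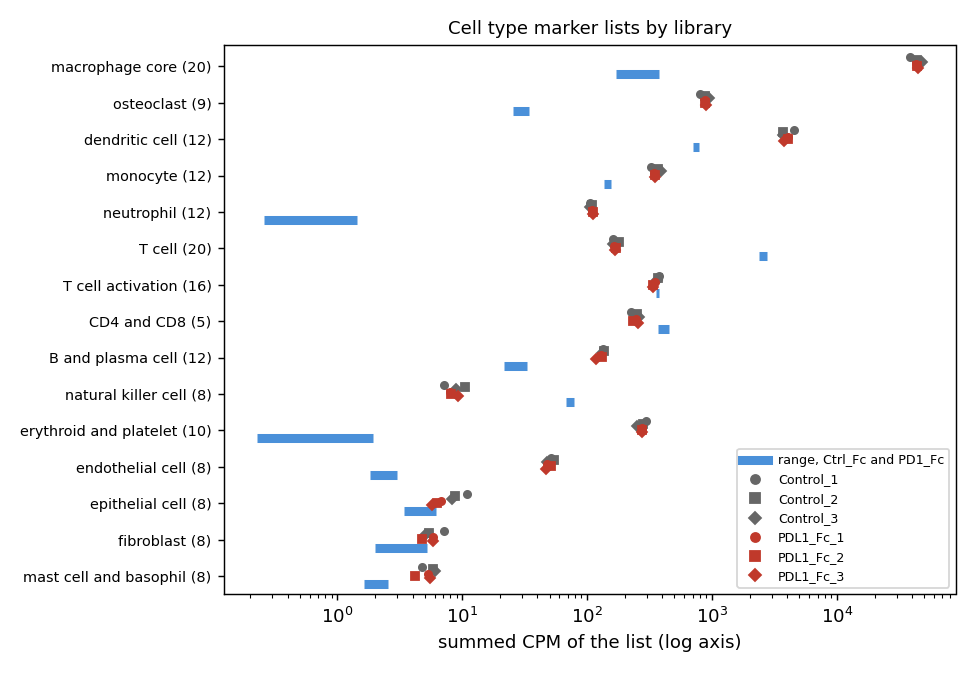
Summed CPM (log axis) of 15 lists of cell type genes, with the number of genes in brackets. Grey symbols are the 3 Control and red symbols the 3 PDL1_Fc libraries, one symbol per replicate, and blue bars are the range over the 6 Ctrl_Fc and PD1_Fc libraries. The macrophage list summed to 38398 to 48223 CPM in the 6 libraries and the T cell list to 160 to 181 CPM.

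All 20 genes of the macrophage list had a mean of at least 1 CPM, and 15 of the 20 at least 100 CPM. Csf1r stood at 352 to 417 CPM, Adgre1, which encodes the macrophage marker F4/80, at 94.7 to 120.2 CPM, and the integrin gene Itgam at 53.3 to 71.4 CPM. Tyrobp and Fcer1g, signalling adaptors that carry the activating motifs for many myeloid receptors, reached 715 to 987 and 1473 to 1765 CPM. Summed over the list, the Control libraries held 38398, 43939 and 48223 CPM and the PDL1_Fc libraries 42874, 43579 and 44292 CPM. The 3 PDL1_Fc libraries therefore lay between the lowest and the highest Control library.

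Genes of resident macrophages were present in part. Vsig4 and Clec4f, receptors of liver macrophages, had 0 counts in all 6 libraries, and Timd4 and Lyve1 had 10 and 23 counts in all. Platelet factor 4, the chemokine gene Pf4, stood at 239 to 281 CPM and the carbonic anhydrase gene Car4 at 102 to 127 CPM, the only 2 of the 18 genes at 100 CPM or more. The related cell types gave a similar mixture. Itgax, an integrin shared by dendritic cells and macrophages, stood at 133 to 149.9 CPM, while Flt3, the growth factor receptor of dendritic cell precursors, had 23 counts in all. Of the 12 dendritic cell genes, 7 had a mean of at least 1 CPM and 3 at least 100 CPM. Their sum of 3717 to 4539 CPM was mostly Bst2, at 3442 to 4256 CPM, and Ccr7, which guides dendritic cells to lymph nodes, stood at 98.7 to 116 CPM. The neutrophil list summed to 105 to 111 CPM, most of it from the calprotectin gene S100a8 at 73.5 to 81.5 CPM, and the osteoclast list to 798 to 954 CPM. Xist, the RNA that silences an X chromosome in female cells, had 7 counts in all, and the Y-linked genes Ddx3y, Eif2s3y, Kdm5d and Uty were counted in each of the 6 libraries, Eif2s3y at 38.9 to 47.4 CPM.

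The 20 highest genes per length, leaving out mitochondrial, ribosomal protein, histone and small RNA genes, showed which products filled these transcriptomes. They were Ccl5, Lyz2, Fth1, B2m, Saa3, Ctss, Tmsb4x, Ctsd, Mt2, Bst2, Spp1, Hmox1, Mt1, Ctsz, Ifitm3, Wfdc17, Isg15, H2-D1, Txn1 and Psap, and 14 of the 20 also stood among the 20 highest by CPM without division by length. Ccl5, a chemokine that draws T cells and monocytes, was the highest at 26286 CPM per kilobase and lies at chr11:83525778-83530518 on the minus strand of GRCm38. Its 3 Control libraries held 23336, 24288 and 25206 CPM and its PDL1_Fc libraries 25874, 25509 and 27195 CPM. Every PDL1_Fc library lay above every Control library, by a log2 difference of 0.10 ± 0.07 (SE) with an edgeR adjusted p of 1.00. Lyz2, the lysozyme of myeloid cells at chr10:117277331-117282321, followed at 16322 CPM per kilobase. Its levels were 17429, 21798 and 24912 CPM in Control and 20792, 21334 and 22614 CPM in PDL1_Fc, so that both the lowest and the highest library were Control libraries. The iron storage gene Fth1 at 15027 and B2m, beta-2 microglobulin, at 14790.5 CPM per kilobase completed the leading group.

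**Figure D2:**
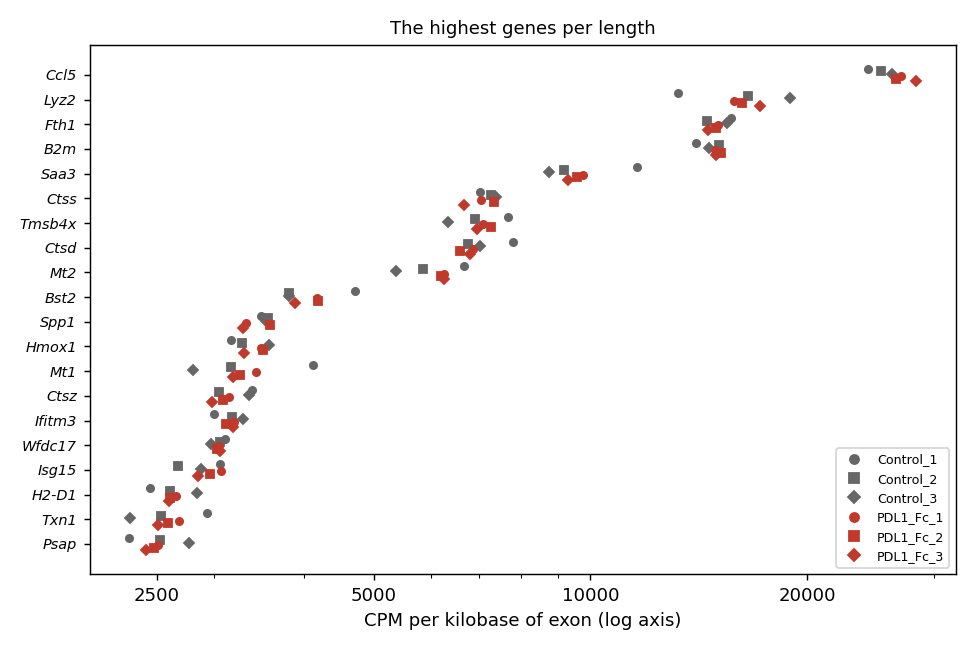
The 20 highest genes by CPM per kilobase of exon (log axis), in the order of their mean. Each symbol is 1 library, grey for Control and red for PDL1_Fc. For each gene the 6 libraries lie close together against the gap from Ccl5 at 26286 to Psap at 2496 CPM per kilobase.

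The names on that list fall into a few roles. Ctss, Ctsd and Ctsz are lysosomal proteases and Psap the precursor of activators of lipid breakdown in the lysosome. Isg15, a ubiquitin-like modifier, and the membrane proteins Bst2 and Ifitm3, which hold back enveloped viruses, are classical interferon-stimulated genes, and B2m and H2-D1 present peptides to T cells and respond to interferon too. Hmox1 breaks down haem, Mt1 and Mt2 bind zinc and Txn1 reduces oxidised proteins. Saa3 is an acute-phase protein that macrophages make on contact with microbial products.

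Promoters of these genes were read for short motifs of the factors known to drive such genes, in windows from 250 bases before to 50 after the RefSeq start (GRCm38.p6). The motif GAAA, any 2 bases and GAAA, the core of the element bound by interferon regulatory factors, stood on either strand in 10 of 19 promoters (52.6%) of the type I interferon list and in 7 of 21 (33.3%) of the 18 matched genes among the 20 highest, against 3.44% of all 32851 promoters. GAGGAA, the core bound by the macrophage factor PU.1, stood in 4 of 21 promoters of the highest genes (19.0%) in 6 of 15 (40%) of the macrophage list, 8 of 19 (42.1%) of the type I interferon list, 6 of 17 (35.3%) of the inflammatory list and 6 of 18 (33.3%) of the NF-kB list, and in 28.3% of all promoters. GGGA, any base, TT, any base and CC, an element bound by NF-kB, the main inflammatory transcription factor, stood in 8 of 18 promoters (44.4%) of the NF-kB list and in 1.20% of all. The interferon and NF-kB motifs were chosen after the expression values were seen. A match describes the letters and is no evidence of binding. The 3 interferon motifs counted in Isg15 overlap one another. The sequences below show the interferon motif in 3 genes of the antiviral and antigen presentation groups, the PU.1 motif in the protease gene Ctss and the NF-kB motif in Nfkbia, which encodes the inhibitor that NF-kB itself induces. Each is the 250 bases before the start, 5′ to 3′ on the gene's strand, with the named motif alone in capitals. The windows are chr4:156200819-156201068 (minus strand) for Isg15, chr8:71537473-71537722 (minus) for Bst2, chr2:122147437-122147686 (plus) for B2m, chr3:95526536-95526785 (plus) for Ctss and chr12:55492648-55492897 (minus) for Nfkbia.
Isg15: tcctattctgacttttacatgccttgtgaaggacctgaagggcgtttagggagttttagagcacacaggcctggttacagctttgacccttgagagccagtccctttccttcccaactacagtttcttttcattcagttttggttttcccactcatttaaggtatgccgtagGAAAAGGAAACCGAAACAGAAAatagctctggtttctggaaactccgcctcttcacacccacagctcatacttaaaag
Bst2: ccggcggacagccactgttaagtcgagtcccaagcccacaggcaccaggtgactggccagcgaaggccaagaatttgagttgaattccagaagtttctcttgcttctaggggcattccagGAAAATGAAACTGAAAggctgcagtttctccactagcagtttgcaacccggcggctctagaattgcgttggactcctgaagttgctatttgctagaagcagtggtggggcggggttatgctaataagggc
B2m: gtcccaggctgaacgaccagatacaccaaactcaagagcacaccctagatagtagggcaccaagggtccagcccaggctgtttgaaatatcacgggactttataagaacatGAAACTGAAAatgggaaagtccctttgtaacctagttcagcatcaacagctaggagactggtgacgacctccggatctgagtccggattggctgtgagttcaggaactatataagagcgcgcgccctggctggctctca
Ctss: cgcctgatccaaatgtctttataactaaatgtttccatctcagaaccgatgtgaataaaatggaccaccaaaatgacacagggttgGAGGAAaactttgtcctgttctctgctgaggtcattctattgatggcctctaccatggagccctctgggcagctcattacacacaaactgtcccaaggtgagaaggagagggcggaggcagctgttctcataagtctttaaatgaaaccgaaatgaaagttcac
Nfkbia: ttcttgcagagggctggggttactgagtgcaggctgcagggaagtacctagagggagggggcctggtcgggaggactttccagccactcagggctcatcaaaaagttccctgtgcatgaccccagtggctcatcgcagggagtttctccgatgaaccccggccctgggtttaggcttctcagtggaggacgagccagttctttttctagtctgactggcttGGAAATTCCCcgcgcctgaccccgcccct

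All 24 genes of the type I interferon list had a mean of at least 1 CPM, and 22 of 24 at least 100 CPM. Isg15 stood at 2314, 2025 and 2177 CPM in Control and 2322, 2237 and 2157 CPM in PDL1_Fc. Bst2 stood at 4256, 3442 and 3443 CPM against 3763, 3782 and 3511 CPM. Both genes overlapped between the groups, with log2 differences of 0.04 ± 0.07 and -0.02 ± 0.08 (SE). The RNA-binding antiviral gene Ifit1 ranged from 371 to 477 CPM and Irf7, the factor that amplifies interferon production, from 2013 to 2647 CPM over the 6 libraries. Of the interferon genes themselves, Ifnb1 was low but counted in every library, at 2.81 to 4.06 CPM, and its receptor chain Ifnar1 stood at 104 to 121 CPM. Genes that answer interferon gamma were mixed in level: Gbp2, a guanylate-binding protein, reached 752 to 984 CPM, while the chemokine gene Cxcl9 stayed at 5.04 to 5.62 CPM, 13 of 20 genes in that list passing 100 CPM.

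The inflammatory list had 11 of 20 genes at 100 CPM or more. Saa3 ranged from 22807 to 30214 CPM and Il1b, the gene of interleukin-1 beta, from 2394 to 2526 CPM. Nos2, the enzyme that makes nitric oxide, stood at 2678, 3213 and 3197 CPM in Control and 3132, 3108 and 3163 CPM in PDL1_Fc. Il6 and Tnf, the classical cytokine genes, ranged from 278 to 342 and from 147 to 168 CPM. Acod1, which makes itaconate, reached 1528 to 1806 CPM, and Arg1, which competes with Nos2 for arginine, 117 to 177 CPM. The alternative activation list was present beside it: the transglutaminase gene Tgm2 stood at 615 to 710.0 CPM, the chitinase-like gene Chil3 at 196 to 244 CPM and the mannose receptor gene Mrc1 at only 7.05 to 11.8 CPM.

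Sensing and antigen presentation were represented as well. Cd14, the co-receptor for lipopolysaccharide, stood at 4019 to 4522 CPM, Unc93b1, the chaperone of the endosomal Toll-like receptors, at 634 to 724 CPM and Tlr2, the receptor for bacterial lipoproteins, at 219.5 to 241 CPM, while Tlr4 itself reached only 10.4 to 15.1 CPM. Of the NF-kB list all 18 genes had a mean of at least 1 CPM and 12 of 18 at least 100 CPM, led per length by Nfkbia at 1679 to 1821 CPM. Casp1, the protease that matures interleukin-1 beta, stood at 204 to 225 CPM and Nlrp3, the sensor that recruits it, at 65.3 to 88.4 CPM. The MHC class II chain H2-Ab1 stood at 954 to 1030.4 CPM. Ciita, the coactivator on which class II genes depend, stood at 3.24 to 5.06 CPM. Cd40, the receptor through which T cells license antigen-presenting cells, stood at 520.3 to 559 CPM. Its ligand Cd40lg had 0 counts.

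Lipid and matrix genes were likewise among the abundant ones. Gpnmb, a lysosomal membrane glycoprotein, stood at 3481 to 4626 CPM, the lipid carrier gene Apoe at 2275 to 2588 CPM and Mmp12, the macrophage elastase, at 2483 to 2888 CPM. Cell cycle genes were low. Only 1 of 25 in that list reached 100 CPM, and Mki67, a marker of dividing cells, stood at 3.56 to 6.45 CPM. Cdkn1a, the p21 inhibitor of the cell cycle, stood at 1365 to 1494 CPM.

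Against the 6 Ctrl_Fc and PD1_Fc libraries, the edgeR quasi-likelihood test over all 12 libraries called 7078 of 14653 genes higher (48.3%) and 6727 lower (45.9%) in the 6 libraries. Nearly every gene thus differed between these sets, so membership of a list among the called genes carries little by itself and the directions are the description. All 20 macrophage genes, all 24 type I interferon genes, all 20 chemokine genes and all 20 lysosome genes were called higher. Of the 16 T cell genes tested, 15 were called lower and 1 higher, the latter being Il7r at 127 to 146 against 8.48 to 16.4 CPM. Of 23 cell cycle genes tested, 20 were called lower, such as the replication gene Mcm3 at 8.63 to 12.7 against 511 to 534 CPM. Cd3e stood at 0 to 0.196 CPM in the 6 libraries and 229 to 267 CPM in the others. The other 6 libraries held 3473884 to 5006301 counts, with 79.9% to 80.4% of reads not aligned, and the set of libraries cannot be told apart from every step that differed between them. Which cells were sequenced in the 6 libraries was not tested.

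PDL1_Fc against Control, the comparison the titles set, gave 0 of 12341 genes past an adjusted p of 0.05 (0.0% called) in edgeR's quasi-likelihood test, and the smallest adjusted p was 0.997. An unadjusted p under 0.05 was reached by 413 genes (3.35%), 212 of them higher in PDL1_Fc (1.72%) and 201 lower (1.63%). DESeq2 also called 0 genes, with 282 at an unadjusted p under 0.05, and limma voom with library weights 0 genes, with 509. In 1081 genes (8.76%) the groups did not overlap. Directions were evenly split, with 6168 genes higher and 6173 lower in PDL1_Fc. The estimates were narrow for genes of moderate level: of 8807 genes with at least 5 CPM, 8405 (95.4%) had a 95% interval that lay within a 1.5-fold difference in either direction. These intervals hold for single genes, without adjustment. Differences smaller than them were not detectable with 3 libraries a group, and a call at the adjusted threshold needed larger ones.

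**Figure D3:**
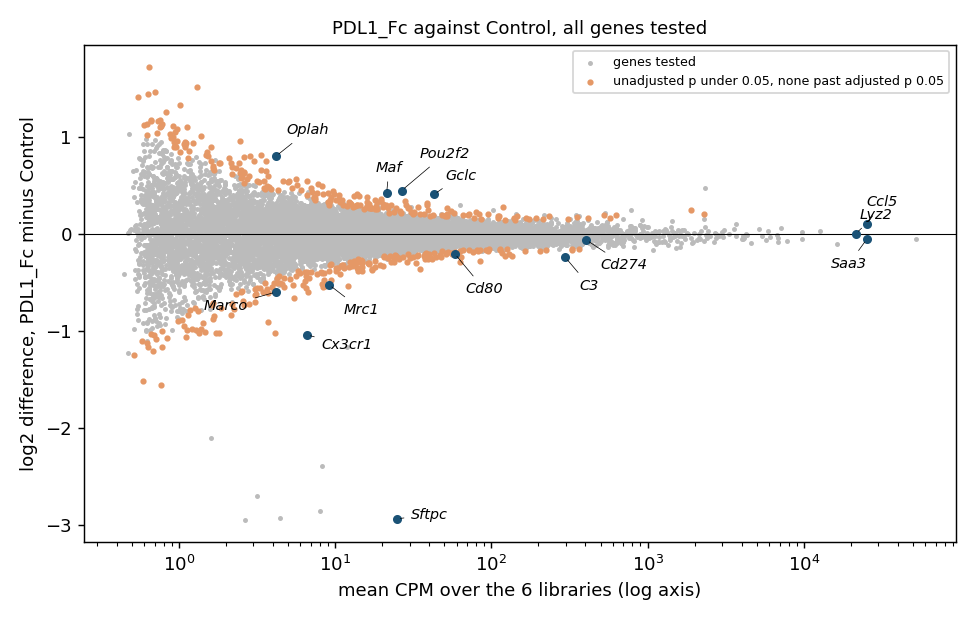
The log2 difference of PDL1_Fc minus Control against mean CPM (log axis) for the 12341 genes tested. Orange points are the 413 genes with an unadjusted p under 0.05, none of which passed after adjustment, and blue points are genes named in the text. The spread narrows with level, and Sftpc at -2.93 lies apart with other genes of the lung list, whose 8 tested members had a median of -2.77. That list was chosen after the high values of the first Control library were seen, so its median is no separate result.

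No gene of the PD-1 axis passed the test. Cd274, which encodes PD-L1, stood at 393, 433 and 412 CPM in Control and 394, 404 and 396 CPM in PDL1_Fc, a log2 difference of -0.06 with a 95% interval from -0.20 to 0.08. The groups overlapped. Pdcd1lg2, the gene of the other ligand PD-L2, stood at 1.19, 1.56 and 1.37 CPM against 1.89, 1.95 and 1.81 CPM, and the 3 PDL1_Fc libraries lay above the 3 Control libraries, with an edgeR unadjusted p of 0.163. Pdcd1, the receptor PD-1 itself, had 2 counts in all 6 libraries, both in the first Control library. Cd80 stood at 63.8, 62.6 and 59.8 CPM in Control and 51.7, 58.9 and 52.2 CPM in PDL1_Fc, without overlap and with a log2 difference of -0.20 ± 0.08 (SE) that did not pass (edgeR adjusted p 1.00). Cd86, its partner in binding CD28, ranged from 88.8 to 102 CPM with overlap. The wider list of the PD-1 pathway and B7 family also holds genes outside this axis, such as Lgals9, Vsir and Nectin2. Of its 15 genes tested, 8 were higher and 7 lower, with a median of 0.02. That median was -0.03 without the first and 0.07 without the third Control library.

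The 20 genes with the smallest p whose groups did not overlap, 10 in each direction and with at least 5 CPM in the higher group, are named as genes that did not pass. Higher in PDL1_Fc were Gclc, Pou2f2, Oplah, Maf, Srek1ip1, Wdr20, Plec, Pcnx3, Itch and Nfat5. Gclc, the catalytic subunit of the enzyme that limits glutathione synthesis, stood at 30.5, 40.1 and 39.98 CPM in Control and 48.7, 47.3 and 51.4 CPM in PDL1_Fc, a log2 difference of 0.41 ± 0.10 (SE). Without the third Control library edgeR gave Gclc an adjusted p of 0.0396. Oplah, 5-oxoprolinase of the glutathione cycle, stood at 3.08, 3.23 and 2.81 CPM against 4.63, 5.44 and 5.93 CPM, a difference of 0.80 ± 0.21. That all 3 PDL1_Fc libraries lay above all 3 Control libraries for both genes follows from the rule that chose them. Nfat5, a transcription factor of the response to osmotic stress, stood at 24.0, 29.2 and 21.04 CPM against 30.1, 32.1 and 32.4 CPM, and Itch, a ubiquitin ligase, at 17.2, 19.2 and 15.0004 CPM against 22.8, 22.1 and 21.4 CPM. Plec, the cytoskeletal linker plectin, was the most abundant of the 10 at 93.1, 117 and 111 CPM against 121, 126 and 144 CPM. The highest Control and lowest PDL1_Fc values nearly met for Nfat5 and Plec.

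Lower in PDL1_Fc, and again not past the threshold, were Mrc1, C3, Emg1, Gemin2, Rsph9, Vcpkmt, Mrps35, Smpdl3a, Cdh1 and Scaper. Mrc1 stood at 9.98, 11.8 and 10.5 CPM in Control and 7.05, 8.13 and 7.43 CPM in PDL1_Fc, a log2 difference of -0.52 ± 0.15 (SE). C3, the central complement component, stood at 315, 305 and 344 CPM against 278, 269.9 and 273 CPM, a difference of -0.24 ± 0.07. Smpdl3a, a phosphodiesterase of the sphingomyelinase family, stood at 133, 151 and 156 CPM against 129, 128 and 121 CPM, and Cdh1, the adhesion molecule E-cadherin, at 7.88, 7.06 and 7.17 CPM against 5.74, 5.17 and 4.49 CPM. The 8 epithelial genes, Cdh1 among them, summed to 10.8, 8.73 and 8.31 CPM in Control and 6.72, 6.32 and 5.74 CPM in PDL1_Fc. Cdh1, named because its groups did not overlap, made up most of these sums. That the sums did not overlap is therefore no separate result. Of the 8, 2 had a mean of at least 1 CPM and 1 was at 0, and their part in the Cdh1 difference was not tested. The edgeR adjusted p of each of the 20 genes was at least 0.997.

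Marco of the scavenger list and Clec10a of the alternative activation list gave other low-level differences of the same direction as Mrc1. Marco, a receptor for bacteria and particles, stood at 5.99, 5.01 and 4.12 CPM in Control and 3.39, 3.43 and 3.25 CPM in PDL1_Fc, and the lectin Clec10a at 6.80, 4.96 and 6.04 CPM against 4.18, 3.96 and 4.81 CPM. Both sets of values were without overlap, with log2 differences of -0.60 ± 0.21 and -0.46 ± 0.20 (SE) that did not pass. Other members of the scavenger list did not share this. The receptor gene Stab1, among those of the list with the smallest p, was higher in PDL1_Fc at a log2 difference of 0.14. The more abundant lectin gene Clec4d ranged from 640.3 to 696 CPM with a difference of 0.03 ± 0.07. Of 18 scavenger and phagocytic receptors tested, 11 were higher and 7 lower, against 6 higher without the first and 14 without the third Control library. The alternative activation list, which holds Mrc1 and Clec10a, had 11 of 16 tested genes higher and 5 lower, at a median of 0.04. That median was -0.002 without the first and 0.05 without the third Control library. Its member Pdcd1lg2 was higher in PDL1_Fc, at a log2 difference of 0.45. Cx3cr1, the fractalkine receptor, had the largest difference among the macrophage genes, at 10.9, 11.05 and 4.66 CPM in Control and 3.72, 4.37 and 4.93 CPM in PDL1_Fc. Its groups overlapped in CPM, since the third Control library lay among the PDL1_Fc libraries. Without that library edgeR gave Cx3cr1 an adjusted p of 0.000207, and without an expression filter 0.000434, against 1.00 in the fit as described.

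**Figure D4:**
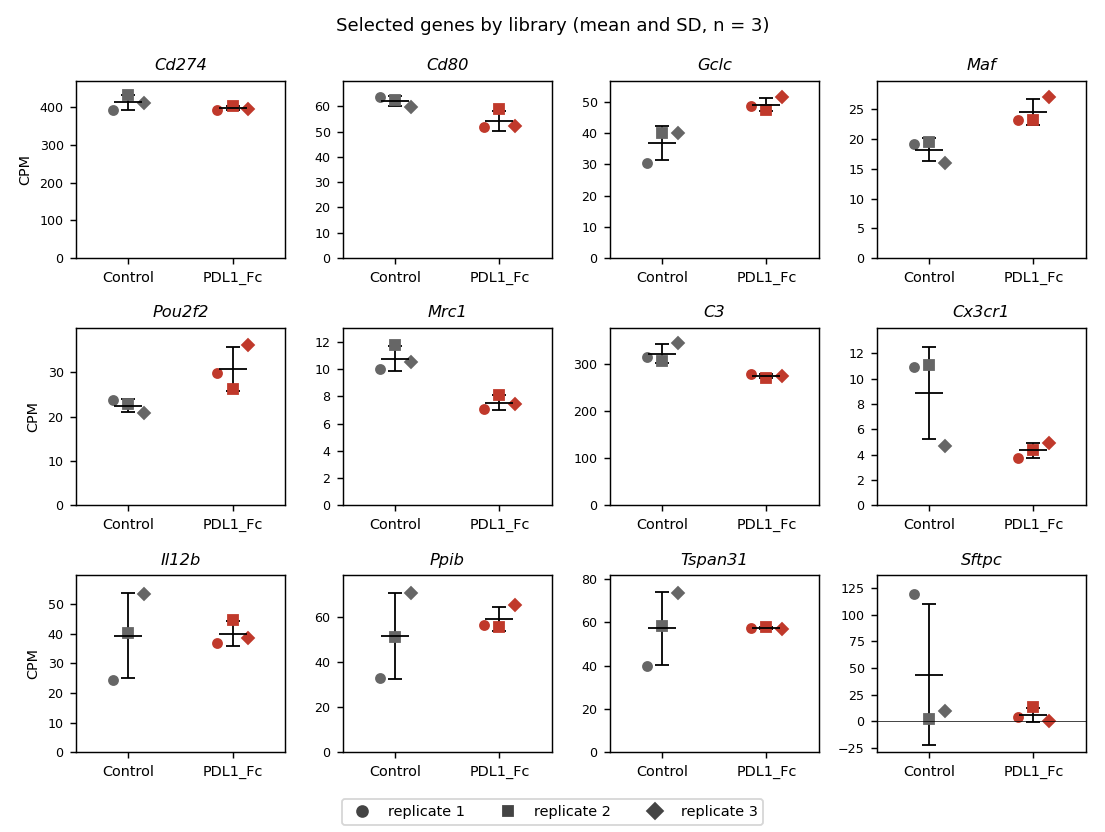
CPM of 12 genes in the 3 Control (grey) and 3 PDL1_Fc (red) libraries, with bars for the mean and SD (n = 3) and symbols for the replicate. Gclc and Mrc1 do not overlap between groups, Cx3cr1 does through the third Control library, and Il12b, Ppib and Tspan31 spread from the first to the third Control library around the PDL1_Fc values.

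Across the 36 pathway lists, 545 of 589 genes were tested, and 11 were higher and 10 lower at an unadjusted p under 0.05, together 3.85% against 3.35% of all genes. Groups did not overlap in 61 (11.2%), against 8.76% of all genes. List medians ran from -0.09 to 0.06 on the log2 scale, where the median of all genes tested was near 0 (-0.000115). Without the first Control library 14 of the 36 medians changed sign and 18 others moved by over 1.5 times, and without the third 7 and 18 did. The NADPH oxidase and redox list had 14 of 20 genes higher with a median of 0.05, and 6 of its 20 did not overlap. The oxidase subunit gene Ncf1, among those of the list with the smallest p, was lower at a log2 difference of -0.12. Besides Gclc, glutathione reductase Gsr had an unadjusted p under 0.05, at 115, 125 and 108 CPM in Control and 129, 131 and 127 CPM in PDL1_Fc. Gclm, the modifier subunit that pairs with Gclc, stood at 102, 141 and 153 against 149, 157 and 155 CPM and overlapped. The quinone reductase gene Nqo1, at 25.8 to 32.6 CPM, and the cystine transporter gene Slc7a11, at 194 to 271 CPM, overlapped as well. Of the myeloid transcription factors 16 of 20 were higher, with a median of 0.06. Id2, an inhibitor of helix-loop-helix factors, stood at 488, 531 and 441 CPM against 542, 571 and 565 CPM without overlap. The PU.1 gene Spi1, at 329.6 to 416 CPM, and Cebpb, at 989 to 1301 CPM, did overlap. Tlr4, the receptor for bacterial lipopolysaccharide, stood at 10.4, 12.2 and 11.2 CPM against 13.4, 15.1 and 13.5 CPM, and Socs1, a brake on cytokine signalling, at 129.9, 139 and 140.3 CPM against 161, 149 and 159 CPM. Both were without overlap and neither passed.

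Other genes of the lists reached an unadjusted p under 0.05 and did not pass after adjustment. Hsf1, the master factor of the heat shock response, stood at 14.0, 16.7 and 17.0 CPM in Control and 19.2, 20.03 and 21.8 CPM in PDL1_Fc without overlap, yet 8 of the 14 heat shock genes tested were lower, at a median of -0.05. Without the first Control library 7 of the 14 were lower at -0.01, and without the third 12 of 14 at -0.05. P2rx7, the receptor for extracellular ATP, stood at 14.1, 16.3 and 15.96 CPM against 17.9, 16.2 and 21.9 CPM with overlap. Tnfsf4, the ligand of OX40, stood at 1.73, 1.94 and 1.67 CPM against 2.87, 4.10 and 1.69 CPM, also with overlap. Odc1, which opens polyamine synthesis from ornithine, stood at 39.3, 40.8 and 40.9 CPM against 36.3, 35.5 and 33.6 CPM without overlap. The neighbouring enzyme gene Arg1, at 117, 166 and 172 CPM against 158, 173 and 177 CPM, did overlap. Nlrc5, the coactivator of MHC class I genes, stood at 138, 144 and 115 CPM against 143, 148 and 155 CPM, and its groups overlapped by 1 library. Of the 18 class I genes tested, 7 were higher and 11 lower at a median of -0.01, and 9 were higher and 9 lower when either the first or the third Control library was left out. Innate checkpoints, inhibitory receptors of myeloid cells and their partners, had 9 of 12 genes lower at a median of -0.07, none at an unadjusted p under 0.05. That median was -0.01 without the first and -0.05 without the third Control library. Sirpa, the receptor for the signal not to ingest, stood at 701, 647 and 581 CPM against 653, 657 and 637 CPM, and its ligand Cd47 at 464 to 503 CPM over the 6 libraries.

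The lysosome list showed the most even direction, with 19 of 20 genes lower in PDL1_Fc at a median of -0.06, none of them at an unadjusted p under 0.05. Ctsd stood at 18326, 15905 and 16511 CPM in Control and 16147, 15473 and 15979 CPM in PDL1_Fc, and Ctsz at 4876, 4392 and 4841 CPM against 4539, 4455 and 4300.2 CPM. Hexa, a subunit of beta-hexosaminidase, stood at 879, 818 and 879 CPM against 801, 783 and 776 CPM and did not overlap. In the list 2 of the 20 genes did not overlap, near the 8.76% of all genes tested. Summed over the list, the Control libraries held 67664, 65593 and 69443 CPM and the PDL1_Fc libraries 65323, 64825 and 63874 CPM. These sums did not overlap, but the direction rested on the third Control library: without it 9 of 20 genes were lower and the median was 0.01, and without the first 19 of 20 were lower at -0.08. Nuclear genes of the respiratory chain had 12 of 16 genes lower at a median of -0.09, which was -0.03 without the first and -0.08 without the third Control library. Sdha, a subunit of succinate dehydrogenase, stood at 99.8, 99.1 and 102 CPM against 91.6, 87.0 and 88.8 CPM, without overlap. The iron list, 11 of 15 higher at 0.06, came to 8 of 15 at 0.00 without the first and 11 of 15 at 0.13 without the third Control library.

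The chemokine sums did not overlap either, at 34664, 36086 and 36542 CPM in Control and 37368, 37178 and 38813 CPM in PDL1_Fc. Ccl5 made up most of them, and only 12 of the 20 chemokine genes were higher, 14 without the first and 8 without the third Control library. Ccl6, the second highest per length, ranged from 3899.9 to 4280.4 CPM with overlap and a log2 difference of -0.05 ± 0.07 (SE). In all, the sums of 5 of the 36 lists did not overlap, where 8.76% of all single genes did not. The others were type I interferon, p53 targets and the respiratory chain. The p53 sums nearly met, at 2557 to 2566 CPM in Control and 2568 to 2605 CPM in PDL1_Fc, though 10 of 15 genes were lower. Those of the respiratory chain nearly met too, at 2631.5 to 2787 CPM in Control and 2573 to 2630.9 CPM in PDL1_Fc. The type I interferon sums also lay close, at 12764 to 13102 CPM in Control and 13142 to 13206 CPM in PDL1_Fc. The type I interferon list had 15 of 24 genes higher at a median of 0.01, the inflammatory list 13 of 19 at 0.04 and MHC class II 8 of 13 at 0.03. Without the first Control library these came to 11 of 24, 9 of 19 and 7 of 13, with medians of -0.00, -0.00 and 0.01. Without the third they were 15 of 24, 13 of 19 and 11 of 13, with medians of 0.02, 0.06 and 0.10.

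**Figure D5:**
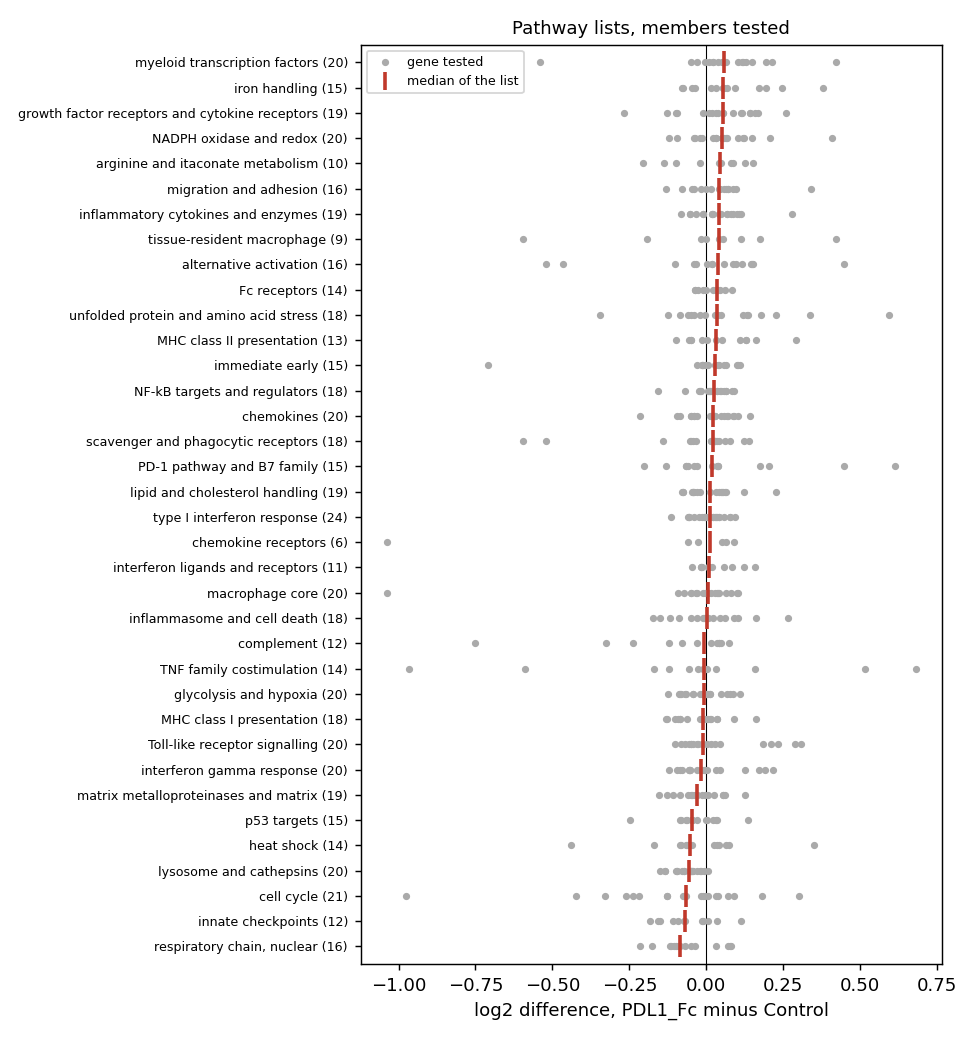
The log2 difference of PDL1_Fc minus Control for the tested members (grey points) of the 36 pathway lists, with the number tested in brackets and the median as a red bar. The medians run from -0.09 for the respiratory chain to 0.06 for myeloid transcription factors.

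The groups differed in spread more visibly than in level. Over 5350 genes with at least 20 CPM, the median SD of log2 CPM was 0.112 among the Control and 0.0661 among the PDL1_Fc libraries, and 3961 genes (74.0%) spread more in Control. The lowest or highest value of the 6 lay in the first Control library for 51.3% of these genes and in the third for 50.9%, against 30.6% in the second and 18.3% to 28.6% in the PDL1_Fc libraries. Of the 15 genes with the largest spread within groups, 13 were lowest in the first and highest in the third Control library. This order was not general over the 5350 genes. Among these the first Control library was lowest in 1389 and highest in 1357, and the third was lowest in 1654 and highest in 1069. Il12b, a subunit of interleukin-12, stood at 24.5, 40.3 and 53.3 CPM in Control and 36.9, 44.7 and 38.6 CPM in PDL1_Fc. Ppib, a chaperone of the endoplasmic reticulum, stood at 32.8, 51.1 and 70.6 CPM against 56.3, 55.6 and 65.0 CPM, and Tspan31, a tetraspanin, at 39.98, 58.1 and 73.4 CPM against 57.2, 58.0 and 56.9 CPM. The PDL1_Fc values sat inside the Control range for all 3 genes, which were named for their large spread.

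The first Control library also held transcripts of lung epithelium. Sftpc, a surfactant protein of alveolar cells, had 119.8 CPM there and 0.187 to 13.5 CPM in the other 5 libraries, and Scgb1a1, a secretory protein of airway club cells, 35.3 CPM against 0.749 to 5.78 CPM. Summed over 15 genes of a lung list chosen after these values were seen, the first Control library had 267 CPM and the other 5 between 2.56 and 31.5 CPM. The 6 Ctrl_Fc and PD1_Fc libraries held 9.79 to 52.1 CPM of the same genes. All 8 lung genes tested were lower in PDL1_Fc, with Sftpc at a log2 difference of -2.93 ± 1.94 (SE), which was 0.04 without the first Control library. The list was chosen after the high values of that library were seen, so the shared direction is no separate result. The second and the third Control library had 1.99 and 9.32 CPM of Sftpc and the PDL1_Fc libraries 3.98, 13.5 and 0.187 CPM, which overlap. Napsa, an aspartic protease that the same list contained, stood at 183 to 225 CPM in all 6 libraries. In that library 20 genes were at least 5 times above every other library with 15 or more counts, in the third PDL1_Fc library 2 genes, Ccr2 and Itga2, and in the other 4 libraries 0. The part these transcripts have in the differences between the groups was not tested.

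Genes with close copies are uncertain on their absolute level, because reads recorded as not unique were left out of gene counts. Gapdh, a glycolytic enzyme gene with many processed copies, stood at only 10.7 to 15.2 CPM, and the ferritin light chain gene Ftl1 at 29.6 to 38.7 CPM beside Fth1 at 50411 to 54290.4 CPM. The MHC class I genes H2-D1 and H2-K1 and the Ifit3 and Oas1 families share sequence in the same way.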

How the data were processed

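Total RNA of the 12 bulk libraries was sequenced, and the authors deposited 1 table of raw read counts per gene symbol for each library. The submitters' processing notes name bcl2fastq, STAR, HTSeq, bedtools, Cell Ranger and the build mm10, with no versions. Rows of reads without a gene were left out of totals and tests. They were not aligned, not unique, outside genes or ambiguous between genes, together 42.6% to 44.4% in the 6 libraries. Gene symbols were matched to GENCODE M21 (GRCm38) for exon lengths and positions, 46467 of 48397 symbols (96.0%). Promoters came from RefSeq (GRCm38.p6).

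PDL1_Fc was tested against Control on the counts of the 6 libraries with edgeR 4.0.16 (R 4.3.3), using filterByExpr, TMM factors, a robust quasi-likelihood fit and Benjamini-Hochberg adjustment at 0.05. The same test on all 12 libraries compared the 6 libraries with Ctrl_Fc and PD1_Fc. Alternatives were DESeq2 1.42.0, limma 3.58.1 voom with library weights, other size factors and filters, all 12 libraries, a replicate block and leaving out each library. The test script was checked on simulated counts. No p was adjusted over a list alone. Named genes were the 20 highest per length, up to 4 highest and 3 smallest-p members of each list, up to 15 genes each way past the threshold (or else the 10 with the smallest p and no overlap), and the 15 of largest spread, beside a few always given. Motif, lung, marker and cell type genes named outside this rule were chosen after their values were seen. The comparison, members and lists were chosen with earlier results of these data known.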

Additional observations from a re-analysis of the deposited data

How the results depend on the processing

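PDL1_Fc against Control gave 0 called genes with DESeq2 size factors, a minimum of 5 CPM, DESeq2, limma voom with library weights, all 12 libraries and the replicate block. Without an expression filter 1 of 22600 genes was called, Cx3cr1, with 746 at an unadjusted p under 0.05. Leaving out each library in turn gave 0 to 5 called genes. The 5 were called without the third Control library, where 986 genes had an unadjusted p under 0.05: Cx3cr1, Neat1 and Mettl17 lower and Gclc and Lars2 higher in PDL1_Fc (edgeR adjusted p 0.000207, 0.00428, 0.0396, 0.0396 and 0.000792). The cause was not tested. Among 37 of the genes named for a small p, no log2 difference changed sign under these alternatives. Genes chosen for a small p, or for groups that do not overlap, could hardly change sign when 1 library was left out. Their constant sign follows largely from that choice and is no measure of robustness. These 37 did not include every smallest-p member of a list. Tyrobp went from 0.10 to -0.01 without the first Control library, and Inpp5d from 0.06 to -0.03 without the third. Of the 254 tested genes that the naming rules chose, 101 changed sign under 1 or more alternatives, none of them at an unadjusted p under 0.05, and 60 did so without the first Control library. Of the 36 list medians, 14 changed sign without the first and 7 without the third Control library, and that of the chemokine receptors went from 0.01 to -0.07 without the first.

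The replicate numbers pair the libraries by number only. Deviations of same-numbered libraries correlated at 0.088, 0.017 and 0.122, and the first Control library correlated more with the second PDL1_Fc library (0.129). The replicate block gave 0 called genes in PDL1_Fc against Control, with 508 at an unadjusted p under 0.05, and 13772 in the 6 libraries against Ctrl_Fc and PD1_Fc. The other alternatives of that comparison called 12805 to 17182 genes, against 13805.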

Other observations

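The 6 Ctrl_Fc and PD1_Fc libraries also held macrophage transcripts, at a low level that was not even. The 20 macrophage genes summed to 368 CPM in the third Ctrl_Fc and 375 CPM in the first PD1_Fc library, and to 170 to 184 CPM in the other 4. Among the 200 genes with the highest level in the 6 PDL1_Fc and Control libraries, the log2 gap to the other 6 had a median of 5.69 and a maximum of 8.82.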
